A study of Mus musculus with 16 samples.

Results

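Primary mouse embryonic fibroblasts carrying a conditional allele of CBP were set against fibroblasts carrying a conditional allele of p300, by their messenger RNA levels on 16 arrays. All 16 samples of the study belong to the comparison, 8 from CBP-conditional lines and 8 from p300-conditional lines, and they were assigned by the genotype in the labels. The CBP-conditional lines were flox1, with 1 conditional and 1 wild-type CBP allele, and triCH1flox1, whose genotype was CBP CH1/flox;p300 CH1/CH1. The p300-conditional lines were flox2, with 1 conditional and 1 wild-type p300 allele, and triCH1flox2, whose genotype was CBP CH1/CH1;p300 CH1/flox. In the triCH1 lines every allele other than the conditional one lacked the CH1 domain. Cells came from e14.5 embryos, all lines received adenoviral Cre at passage 3, and cultures were then expanded at least 100-fold. Each line was measured once after ethanol vehicle (EtOH), trichostatin A (TSA, 100 ng/ml), dipyridyl (DP, 100 µM), and TSA followed 30 min later by DP, with RNA taken 3 h after the last addition. After Cre a CBP-conditional line is expected to keep 1 CBP gene copy and both p300 copies, and a p300-conditional line the reverse. The labels give no replicate cultures and no embryo numbers, so a line stands for its genotype and the number of lines limits the precision.

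CBP, encoded by Crebbp, and p300, encoded by Ep300, are paralogous histone acetyltransferases. They are recruited by many transcription factors, among them CREB and the hypoxia-inducible factor HIF, and acetylate histones at enhancers and promoters. The CH1 domain is one of the surfaces through which factors such as HIF bind them. Both genes are known to be dosage sensitive in mouse development.

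The summed signal of 16 fibroblast markers averaged 300243 in flox1 and 270706 in triCH1flox1, against 288087 in flox2 and 258370 in triCH1flox2. The 12 macrophage markers summed to 1181 and 1015 in the CBP-conditional lines, against 1138 and 1057 in the p300-conditional lines, and 0 erythroid markers passed the filter on low signals. Other lists were less alike. In the same order of lines, smooth muscle markers summed to 131637 and 121460, against 120410 and 107351, and neural markers to 10035 and 7026, against 6285 and 5588. Much of the neural sums came from Ncam1, at 5295 and 4022, against 2759 and 1944. Map2, the other bright neural marker, was at 2678 and 1403, against 1908 and 2163, so the neural list did not differ as a whole. Epithelial markers summed to 1923 and 1049, against 1184 and 1300, and endothelial sums were also highest in flox1. The vehicle array of flox1 stood apart from the other 15, with a 3' to 5' signal ratio of 2.59 for Gapdh against 0.907 to 1.26. All 4 flox1 arrays had backgrounds of 180 to 235, against 102 to 198 on the other 12.

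The promoters of both targeted genes, of the gene with the largest difference (Cap1), and of 2 genes lower in CBP-conditional lines (Rab3b, Efhd2) are printed to show which factor motifs their upstream windows held. Each is the run of 250 bases before the annotated start in RefSeq, build GRCm38.p6, given 5′ to 3′ on the gene's strand. Capitals mark matches on either strand to TGACG (the core of the site bound by CREB), ACGTG (the core bound by HIF) or GGGCGG (the GC box); the first 2 share letters in TGACGTG. The windows lie at chr16:4213405-4213654 (minus strand), chr15:81585964-81586213 (plus), chr4:122886077-122886326 (minus), chr4:108878820-108879069 (plus) and chr4:141874921-141875170 (minus).
Crebbp: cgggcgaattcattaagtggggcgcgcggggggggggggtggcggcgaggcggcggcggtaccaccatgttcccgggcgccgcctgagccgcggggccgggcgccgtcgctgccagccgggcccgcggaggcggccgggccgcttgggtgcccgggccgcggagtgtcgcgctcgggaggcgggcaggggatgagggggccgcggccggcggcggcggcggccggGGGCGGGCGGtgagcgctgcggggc
Ep300: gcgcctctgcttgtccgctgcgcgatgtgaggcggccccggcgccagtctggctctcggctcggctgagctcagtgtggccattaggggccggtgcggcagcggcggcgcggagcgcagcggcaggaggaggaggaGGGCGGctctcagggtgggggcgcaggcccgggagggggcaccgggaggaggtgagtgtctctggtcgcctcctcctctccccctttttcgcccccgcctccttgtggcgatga
Cap1: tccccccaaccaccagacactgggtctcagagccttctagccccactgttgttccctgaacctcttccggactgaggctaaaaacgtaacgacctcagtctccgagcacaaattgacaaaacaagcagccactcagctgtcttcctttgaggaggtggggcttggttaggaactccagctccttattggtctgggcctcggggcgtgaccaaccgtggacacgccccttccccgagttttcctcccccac
Rab3b: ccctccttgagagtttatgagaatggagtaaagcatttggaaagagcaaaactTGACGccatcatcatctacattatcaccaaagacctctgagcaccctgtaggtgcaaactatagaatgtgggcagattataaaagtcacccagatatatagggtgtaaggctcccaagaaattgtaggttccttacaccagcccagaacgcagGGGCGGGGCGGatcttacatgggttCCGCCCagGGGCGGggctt
Efhd2: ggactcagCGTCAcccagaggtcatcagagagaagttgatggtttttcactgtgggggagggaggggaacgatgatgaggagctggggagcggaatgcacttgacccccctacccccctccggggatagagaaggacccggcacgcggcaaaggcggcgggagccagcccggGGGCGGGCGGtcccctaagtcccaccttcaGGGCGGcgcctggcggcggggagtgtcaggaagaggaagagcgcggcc

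The Crebbp window held 2 overlapping GC boxes and the Ep300 window 1, with 0 matches to TGACG or ACGTG in either. The Cap1 window held 0 matches to any of the 3 motifs, whereas Rab3b and Efhd2 each held 1 TGACG. Over the 27025 genes with a window in the table, 17.9% held TGACG, 16.6% ACGTG and 32.9% GGGCGG. Of the genes described below as higher in CBP-conditional lines, 50 had a window, and 10% of these held TGACG. Of the genes lower in CBP-conditional lines 81 had a window, and 16% held TGACG, against 27.8% of the 9313 windows of all genes tested. The GC box was held by 68% of the higher and 55.6% of the lower genes, against 60.9% of all genes tested. These matches describe letters in a window only, and differences between the shares were not tested.

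Crebbp RNA was lower and Ep300 RNA higher in CBP-conditional lines. Crebbp had lowest, median and highest signals of 361, 978 and 1633 on the 8 CBP-conditional arrays, against 625, 1354 and 2500 on the 8 p300-conditional arrays. The signal was below the vehicle signal on every TSA array, so the ranges over treatments overlapped, but within each of the 4 treatments both CBP-conditional arrays lay below both p300-conditional arrays. Averaged over treatments, Crebbp was at 993 in flox1 and 952 in triCH1flox1, against 1350 in flox2 and 1470 in triCH1flox2. The fitted difference was -0.56 on the log2 scale (SE 0.12, limma adjusted p = 0.0497, 2 lines per group), or 1.47-fold, and Crebbp was lower in 8 of 8 matched pairs. Over 17 alternative settings Crebbp passed in only 6, with differences of -0.62 to -0.43. Its other 2 probe sets that passed the filter differed by -0.35 and -0.40.

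Ep300 had signals of 260, 780 and 1945 (lowest, median and highest) on CBP-conditional arrays, against 206, 446 and 941 on p300-conditional arrays. Within each treatment both CBP-conditional arrays lay above both p300-conditional arrays. The line means were 836 in flox1 and 987 in triCH1flox1, against 436 in flox2 and 555 in triCH1flox2. The difference was 0.73 (SE 0.14, limma adjusted p = 0.0259), or 1.66-fold, higher in 8 of 8 pairs. Ep300 passed in only 7 of the 17 alternative settings, with differences of 0.59 to 0.85. The position of these probe sets against the floxed exons was not analysed here, so the signals check the labels only in part. Among the 12 other tested members of the list of CBP, p300 and partner coactivators, 0 passed.

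**Figure D1:**
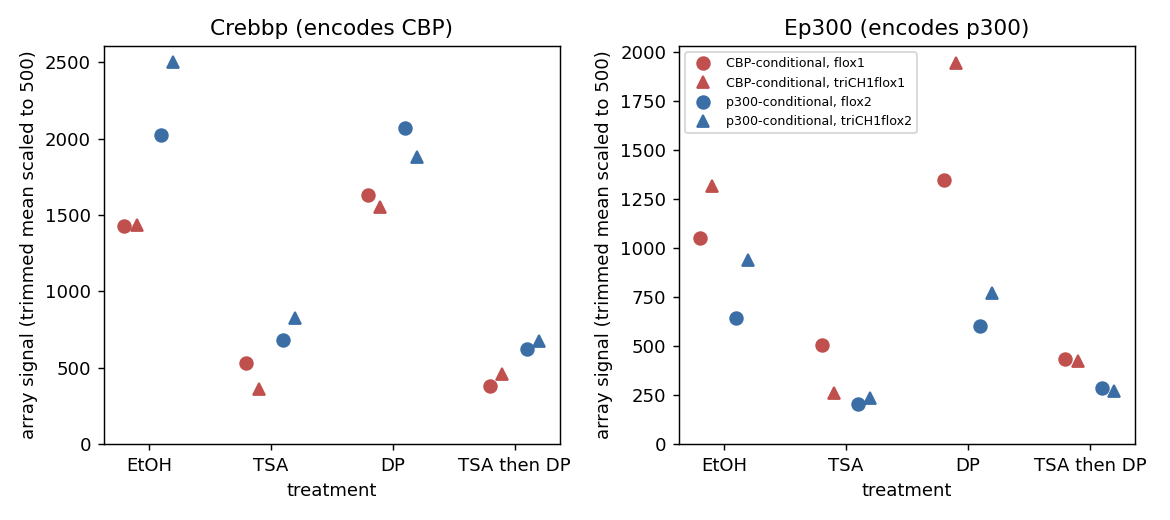
Array signal (linear scale, trimmed mean of each array scaled to 500) of Crebbp and Ep300 by treatment, with 1 point per array, CBP-conditional lines in red left of p300-conditional lines in blue, circles for control-class and triangles for triCH1 lines. In every treatment both red points lie below both blue points for Crebbp and above both for Ep300.

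The main comparison asked which genes differ in level between cells with a conditional CBP allele and cells with a conditional p300 allele, whatever the treatment and CH1 class. Of 11481 genes tested on line means, 178 differed (1.55%), 68 higher (0.592%) and 110 lower (0.958%) in CBP-conditional lines. The largest rise was in Cap1, which encodes a protein that promotes actin filament turnover, and the largest fall in U90926. Among the 10 largest falls Prelp, Ptx3 and Fndc1 encode secreted or matrix proteins. Prelp and Fndc1 entered the test only through the p300-conditional arrays, so they are descriptions, although both count among the 110 lower genes. The median size among these 178 was 0.75 and the smallest 0.39 on the log2 scale, and 42 differed by at least 2-fold, 9 higher and 33 lower. Of the 178 genes, 83 were in the 25% of genes with the highest signals and 6 in the 25% with the lowest. Other passing probe sets existed for 93 of the 178. In 15 of these 93 genes at least 1 such probe set differed the other way, in 5 genes by 0.5 or more.

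The matched pairs of arrays make up the line means from which these genes were called, so their agreement is a description and no further support. Of the 178 genes, 148 differed the same way in all 8 pairs of a treatment and CH1 class, beside 5.11% of all genes tested (2.43% higher and 2.68% lower). For 50 of them, 13 higher and 37 lower, the 8 CBP-conditional arrays did not overlap the 8 p300-conditional arrays, beside 0.575% of all genes tested (0.183% higher and 0.392% lower). Over all genes the difference in the control class (flox1 minus flox2) and that in the triCH1 class correlated at 0.18, a description across genes, which are not independent replicates. The spread of the fitted difference over all genes was 0.25 (SD), close to the 0.28 of the difference between the 2 CH1 classes.

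The number of calls rested on how the spread was estimated. With 2 lines against 2 an exact permutation test that ignores CH1 class cannot go below p = 0.333, and within class its floor is higher. The fit has 1 residual degree of freedom with about 10 borrowed from all genes. Without a variance trend 0 genes passed (880 at an unadjusted p under 0.05, against 1248), without the term for CH1 class 3 passed, and leaving out 1 line gave 8 to 17. With a term for 2 series of arrays, grouped here by the leading digits of the barcodes in the labels, 52 passed. The smaller series held 4 arrays, flox2 with TSA then DP and triCH1flox1 on every treatment except vehicle, so it lay mostly within 1 line. On the 8 arrays in pairs of 1 series 160 passed, 107 of them shared. Those were the control-class pairs with EtOH, TSA and DP and the triCH1 vehicle pair. The first 2 of these settings cannot alter a sign, since the fitted difference is the same. With the term for array series the sign was that of the reported difference in 178 of 178 genes, in the pairs of 1 series in 175, and with a line left out in 176 to 178, all on arrays that also made the calls.

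**Figure D2:**
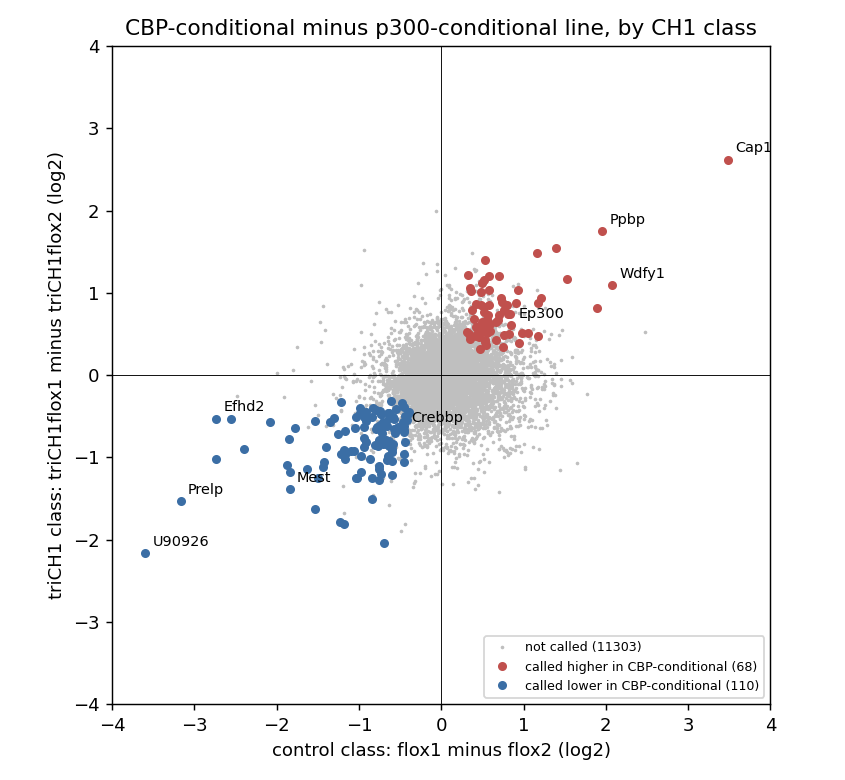
Each point is 1 of 11481 genes, with the difference flox1 minus flox2 on the x axis and triCH1flox1 minus triCH1flox2 on the y axis (log2, mean over 4 treatments). Genes that passed lie in the lower left (110, blue) and upper right (68, red) quadrants, with Cap1 at 3.48 and 2.62 and U90926 at -3.60 and -2.16.

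Cap1 was the gene most raised in CBP-conditional lines. Its signal was 3304 to 9501 (median 5725) on CBP-conditional arrays, against 305 to 943 (median 707) on p300-conditional arrays, so the groups were far apart. The difference was 3.05 (SE 0.17, limma adjusted p = 7.5e-06), or 8.29-fold, and the gene's other probe set gave 2.46.

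Ppbp, which encodes the precursor of the chemokine CXCL7, was the most uniform of the large rises. It ranged from 6401 to 8741 (median 7129) in CBP-conditional lines, against 1914 to 2106 (median 2009) in p300-conditional lines. This is a difference of 1.85 (SE 0.10, limma adjusted p = 7.5e-06), or 3.61-fold. It was alike in the control class (1.96) and the triCH1 class (1.75).

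Wdfy1, an endosomal protein, had line means of 1178 and 1120 in CBP-conditional lines, against 239 and 503 in p300-conditional lines. It differed by 1.59 (SE 0.20), with 1.24 and 1.16 for its other 2 passing probe sets. The other rises named by rule were Lancl3 (1.47), Ccbe1 (1.35), Sdc4 (1.32), Glipr1 (1.07), Edil3 (1.03), Ncam1 (0.98) and Glo1 (0.96), with adjusted p from 8.6e-05 to 0.0118 in limma. Ccbe1 is required for lymphatic vessel growth, Edil3 is a secreted integrin ligand, Ncam1 is a cell adhesion molecule, and Glo1 detoxifies methylglyoxal. Sdc4, a heparan sulfate proteoglycan of focal adhesions, carries a reservation, since its second probe set differed by -1.31. The arrays of the 2 groups did not overlap for Cap1, Ppbp, Wdfy1, Lancl3, Ccbe1, Sdc4, Ncam1 and Glo1, and overlapped for Glipr1 and Edil3.

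U90926 was the gene most lowered. It had signals of 140 to 1051 (median 495) on CBP-conditional arrays, against 2700 to 4343 (median 3650) on p300-conditional arrays, with no overlap. The difference was -2.88 (SE 0.24, limma adjusted p = 0.000379), or 7.36-fold.

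Prelp, a small leucine-rich proteoglycan that anchors matrix to basement membranes, was at 12.5 to 153 (median 81.6) in CBP-conditional lines, against 230 to 1156 (median 606) in p300-conditional lines. All 8 CBP-conditional signals were under the filter of 200, so Prelp entered the test only through the p300-conditional arrays and had to differ. Its fitted difference of -2.35 (SE 0.33, limma adjusted p = 0.00563) is given as a description, on a scale that understates differences of dim genes. Mest, an imprinted gene expressed from the paternal copy, was at 27.5 to 382 (median 242), against 589 to 820 (median 695). The difference was -1.61 (SE 0.17, limma adjusted p = 0.00196), and the lowest of these signals was on the flox1 vehicle array.

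Ptx3, a secreted pattern-recognition protein, was at 324 to 1608 (median 786), against 1704 to 3996 (median 1928), a difference of -1.51 (SE 0.15, limma adjusted p = 0.000966). The receptor Tnfrsf1b fell by 1.65, the exocytosis GTPase Rab3b by 1.88, the calcium-binding protein Efhd2 by 1.63, and the membrane glycoprotein Pdpn by 1.55 on the log2 scale, and the G-protein regulator Rgs17 was 2.82-fold lower (limma adjusted p from 0.00745 to 0.0447). Fndc1, which has fibronectin type III domains, reached 200 on 1 CBP-conditional array and on all 8 p300-conditional arrays, so it too entered only through the p300-conditional lines, and its -1.51 is a description. Its other passing probe set showed almost no difference, barely of the other sign. Efhd2 carries a reservation, since its second probe set differed by only -0.31. For Efhd2, Pdpn, Tnfrsf1b and Rab3b the difference was far larger between the control lines than between the triCH1 lines. Efhd2 had line means of 594 in flox1 and 2785 in triCH1flox1, against 3977 in flox2 and 4019 in triCH1flox2. Pdpn had 472 and 2175, against 2985 and 3156. Efhd2 differed by -2.73 between the control lines and by -0.53 between the triCH1 lines, Pdpn by -2.56 and -0.54, Tnfrsf1b by -2.40 and -0.89, and Rab3b by -2.74 and -1.01. In U90926, Prelp and Wdfy1 (2.08 and 1.09) it was also larger between the control lines, and in Glo1 (0.53 and 1.40) between the triCH1 lines.

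**Figure D3:**
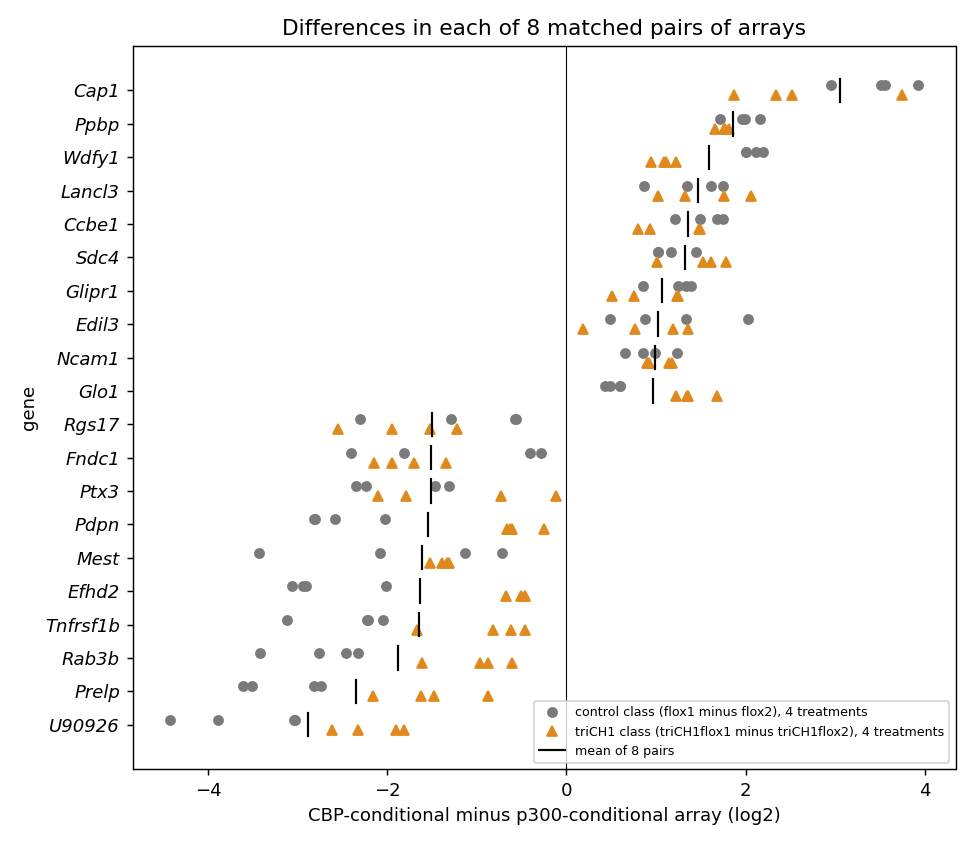
Differences between the CBP-conditional and the p300-conditional array in each of 8 matched pairs (log2), for the 10 genes most raised and the 10 most lowered, with circles for the control class, triangles for the triCH1 class and a bar at the mean. Every pair lies on the same side of 0 for each of the 20 genes, and circles do not overlap triangles for 8 of them (Wdfy1, Glo1, U90926, Prelp, Rab3b, Tnfrsf1b, Efhd2 and Pdpn).

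Extracellular matrix genes moved in both directions. Of 28 tested collagen chains 4 fell and 1 rose, beside 0.958% and 0.592% of all genes, and the list's median of 0.08 was near the 0.01 of all genes. All 3 tested chains of collagen VI, the beaded-filament collagen around cells, fell: Col6a3 by 0.73, Col6a2 by 0.57 and Col6a1 by 0.55 (limma adjusted p = 0.0037, 0.0112 and 0.0104), each lower in 8 of 8 pairs. Col6a3 had signals of 5463 to 7177 (median 5873) in CBP-conditional lines, against 8853 to 11060 (median 10617) in p300-conditional lines, without overlap. Col12a1 fell by 0.48 (7 of 8 pairs), although it stood at 0.07 on the 8 arrays in pairs of 1 series, and Col5a3 rose by 0.60 (adjusted p = 0.0138).

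The small leucine-rich proteoglycans, which bind collagen fibrils, were grouped after their values were seen. Of 11 family members 9 passed the filter, and 4 of these passed the test as lower and 0 as higher, beside 0.958% and 0.592% of all genes. Prelp is 1 of the 4, and since the family was picked for its falls the count supports nothing. Over the 9 tested, 8 differences were negative, beside 5545 of 11481 over all genes. Fmod had signals of 884 to 1817 (median 1060) in CBP-conditional lines, against 1787 to 3677 (median 3042) in p300-conditional lines, which overlapped slightly. It fell by 1.24 (SE 0.12, limma adjusted p = 0.000919), and all 6 of its probe sets were lower in 8 of 8 pairs. Aspn fell by 0.95 and Lum by 0.90 (adjusted p = 0.00494 and 0.0101). Omd was at -0.88, Dcn at -0.70, Ogn at -0.52, Optc at -0.26 and Bgn at 0.04, and these 5 did not pass.

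Other matrix and signalling genes, also chosen after their values were seen, fell on one side and rose on the other. Eln, the elastin gene, fell by 1.08, the microfibril gene Fbn2 by 0.94, Comp by 1.01 and the protease inhibitor Timp3 by 0.77. Comp was the 1 of 8 tested cartilage markers to pass, beside 1.55% of all genes, and 5 of the 8 were positive, with a median of 0.15. The bone morphogenetic protein Bmp4 was at 363 to 1432 (median 704) in CBP-conditional lines, against 1091 to 2425 (median 1482) in p300-conditional lines. It fell by 1.04 (SE 0.13, limma adjusted p = 0.00321). Also lower were Id1 (by 0.71, in 7 of 8 pairs) and Smad6 (by 0.64, in 8 of 8 pairs). BMPs are known to induce these 2 genes, but a link to Bmp4 was not tested. Those 2 stood on the list of 12 TGF-beta targets, of which 1 rose and 2 fell, beside 0.592% and 0.958% of all genes. On that list 6 differences were positive and 6 negative, and the median was -0.02. The chemokine Cxcl12 fell by 0.85 without overlap of the arrays. In the other direction, the adhesion genes Tnc (0.54), Lamb1 (0.64) and Itga5 (0.46), the growth factors Inhba (0.69) and Hbegf (0.67) and Ankrd1 (0.90), a target of the factor YAP, rose in 8 of 8 pairs each, with adjusted p from 0.00563 to 0.029 in limma. Itga5 carries a reservation, since at least 1 of its other passing probe sets differed the other way. Pmepa1, a feedback inhibitor of TGF-beta signalling, was the member of that list that rose, by 0.42.

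No gene of the mitosis and DNA replication lists passed, although most of their differences had 1 sign. Of 23 mitosis genes 22 had a negative difference, with a median of -0.26, and 5 were negative in all 8 pairs, as 2.68% of all genes were. Of 25 DNA replication genes 22 were negative, with a median of -0.14. Among 11 CDK inhibitor and senescence genes, Cdkn2a, which encodes p16 and ARF, was the 1 to pass, beside 1.55% of all genes. It rose by 0.65 (SE 0.14, limma adjusted p = 0.0487). It had signals of 389 to 1139 (median 623) in CBP-conditional lines, against 256 to 666 (median 354) in p300-conditional lines, higher in 8 of 8 pairs with overlapping ranges. Pmaip1, a p53 target that promotes apoptosis, rose by 0.65, the 1 gene of 20 p53 targets to pass, beside 1.55% of all genes. Without flox1 or without triCH1flox2 its difference turned to -0.03 and -0.02, as the lines left then differ in CH1 class too.

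Lists of markers of cell type and position held 0 to 2 calls each, beside 1.55% of all genes tested. All 11 smooth muscle markers had a positive difference, with a median of 0.15, and Cnn1, an actin-binding protein, was the 1 that passed (0.48, SE 0.09, limma adjusted p = 0.0185). The differences of all 4 tested adipocyte markers were negative, and Fabp4, a fatty acid carrier, passed at -0.71. Of 16 fibroblast markers 2 fell (Col6a1, Lum), while 10 were positive and the median was 0.05, and of 6 neural markers Ncam1 rose. Of 25 Hox genes, which record the position a fibroblast came from, 0 passed and the median was 0.10. Of 8 sex-linked genes 0 passed, with a median of -0.13. Xist, transcribed from the inactive X, averaged 45.0 in flox1 and 3445 in triCH1flox1, against 41.7 in flox2 and 2691 in triCH1flox2, and the Y-linked Eif2s3y 1159 and 22.4, against 1421 and 35.95. The control lines thus had a male and the triCH1 lines a female pattern, so sex and CH1 class cannot be told apart wherever the classes are compared, while the alleles were balanced for it. In these bulk cultures fewer cells of a type and less RNA per cell cannot be told apart.

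The lists of CREB and HIF targets, interferon response genes and imprinted genes held 0 to 2 calls each, beside 1.55% of all genes tested, and with so few members 1 or 2 calls say little about a list. Ptgs2, the prostaglandin synthase COX-2, was the 1 of 18 CREB targets to pass. It was at 4525 to 21448 (median 10200) in CBP-conditional lines, against 3465 to 14424 (median 6366) in p300-conditional lines, a difference of 0.77 (SE 0.16, limma adjusted p = 0.0363) and higher in 7 of 8 pairs. Among 33 other HIF targets the collagen hydroxylase Plod2 rose by 0.39, and among 17 HIF targets of glycolysis and glucose transport 0 passed. Of 10 interferon response genes 9 had a negative difference, with a median of -0.27, and Bst2, which tethers virus particles to cells, passed at -0.98 (SE 0.19, limma adjusted p = 0.0259). Of 19 imprinted genes Mest and the growth factor Igf2 fell, Igf2 by 0.75 (adjusted p = 0.00679), and the list's median was -0.06.

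**Figure D4:**
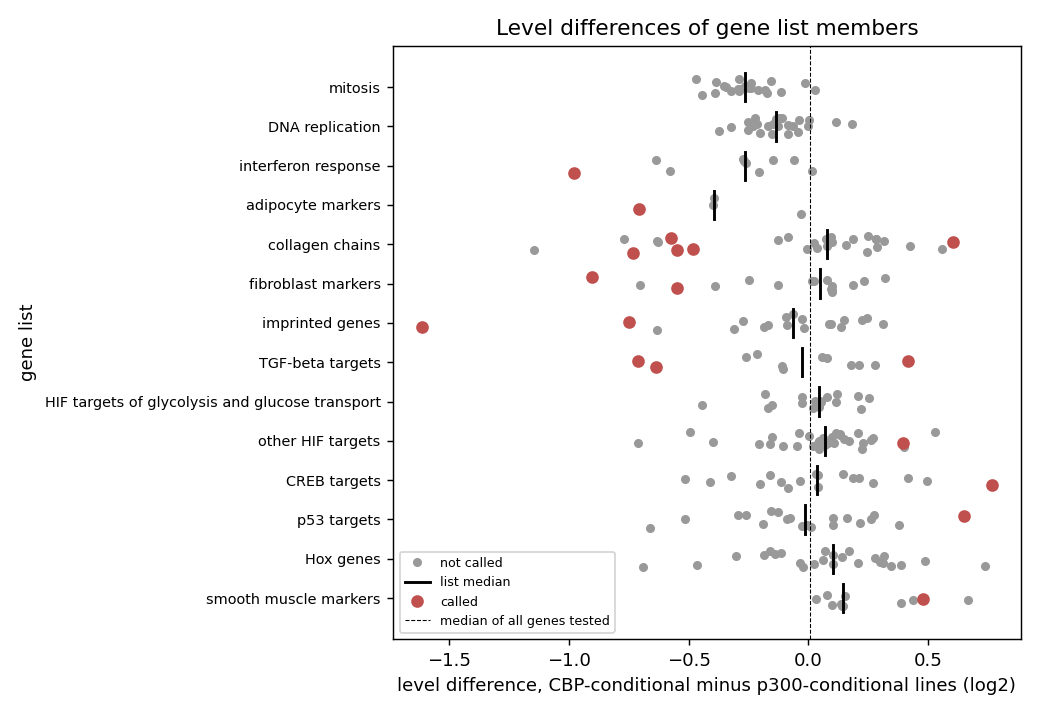
Level difference (log2, CBP-conditional minus p300-conditional lines) of each tested member of 14 gene lists, with red points for genes that passed, grey for those that did not, a bar at each list's median and a dashed line at the median of all genes (0.01). Mitosis members lie almost all left of the dashed line and smooth muscle members all right of it, with few red points in any list.

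Genes near the targeted loci held no calls in limma. Of 34 tested genes starting within 5 Mb of the start of Crebbp on chromosome 16, 0 passed with 3 at an unadjusted p under 0.05, and of 122 around Ep300 on chromosome 15, 0 passed with 7 at that level. Over all 11481 genes 1.55% passed and 1248 were at that level, so 0 calls among so few genes says little about the loci. Chromosome 4, noted after the values were seen, held 25 of the 178 genes, or 3.51% of its 712 tested genes beside 1.55% of all, among them Cap1 and 4 of the 10 most lowered genes. In gene order its first 356 tested genes had 6 higher and 4 lower, and its last 356 had 2 higher and 13 lower. From Efhd2 to the last tested gene 7 of 109 genes passed, all lower, beside 0.958% of all genes. The stretch was cut at a gene that had passed, so its count is raised by that choice and is a description. The 7 genes differed by -2.73 to -1.05 between the control lines and by -0.89 to -0.53 between the triCH1 lines. The median over all 109 genes was -0.06 for the control lines and -0.01 for the triCH1 lines. The labels used here give no strain background for the lines, and inherited differences between the lines and the conditional alleles cannot be told apart with 2 lines each.

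The second question was whether the change after DP, which mimics hypoxia by chelating iron, differs between the genotypes. Signals of the named HIF targets were higher on DP than on vehicle arrays in all 4 lines, and no HIF target passed for a difference in its change. The difference in DP change passed for 3 of 11481 genes (0.0261%), Raly, Tnrc18 and Mgst3, with 1213 genes at an unadjusted p under 0.05. Comparisons for DP and for TSA share the 4 vehicle arrays, so they are not independent of each other.

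HIF targets of glycolysis and glucose transport changed with DP by a median of 0.95 in flox1 and 0.80 in triCH1flox1, against 1.53 in flox2 and 1.02 in triCH1flox2. The difference in change was negative in 14 of 17 genes with a median of -0.32, beside -0.01 for all genes, and 0 passed. For the TSA change, which shares the vehicle arrays, it was negative in 13 of these 17 genes, with a median of -0.11. The 33 other HIF targets changed by medians of 2.13 and 1.03 in the CBP-conditional lines, against 1.77 and 1.00 in the p300-conditional lines, with a median difference of -0.13. In both lists the median change was larger in the control-class line than in the triCH1 line of the same allele.

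For Slc2a1, Egln3 and Vegfa the control-class line changed more than the triCH1 line under both conditional alleles. Slc2a1, the glucose transporter GLUT1, had signals of 4502 (EtOH) and 20209 (DP) in flox1 and 5239 and 13990 in triCH1flox1, against 4013 and 21137 in flox2 and 4343 and 13208 in triCH1flox2. Its change was 2.15 and 1.41 in CBP-conditional lines, against 2.38 and 1.59 in p300-conditional lines (difference -0.21, SE 0.16, limma adjusted p = 0.70). Egln3, which hydroxylates the HIF alpha subunit, changed by 3.62 and 1.68, against 3.89 and 1.71 (difference -0.15, SE 0.31). Vegfa, the angiogenic growth factor, changed by 2.40 and 1.16, against 1.94 and 1.44 (difference 0.09, SE 0.32). The differences in change were -0.01 for the mitophagy gene Bnip3, -0.26 for the pyruvate dehydrogenase kinase Pdk1, -0.27 for Ankrd37, -0.10 for Ndrg1 and 0.34 for Ddit4, with SEs of 0.19 to 0.44, and none passed.

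**Figure D5:**
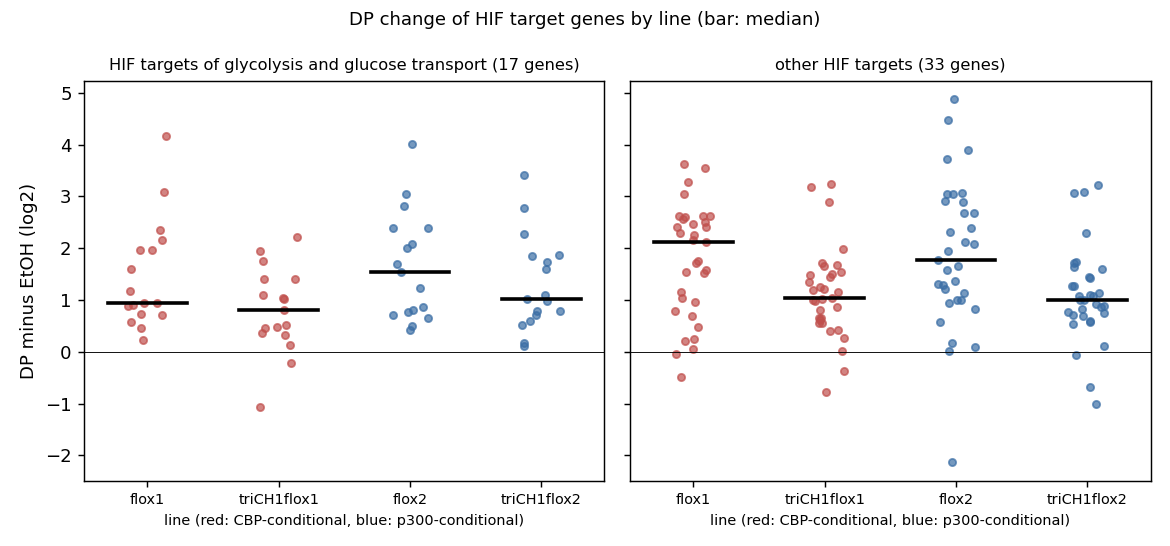
Change after DP (DP minus EtOH, log2) of each tested HIF target in each line, with the CBP-conditional lines flox1 and triCH1flox1 in red left of the p300-conditional lines flox2 and triCH1flox2 in blue and a bar at each median. Medians are 0.95, 0.80, 1.53 and 1.02 for the 17 genes of glycolysis and glucose transport and 2.13, 1.03, 1.77 and 1.00 for the 33 others.

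Raly, an RNA-binding protein of the hnRNP family, changed in opposite directions. Its signals with EtOH and DP were 498 and 1101 in flox1 and 1169 and 1807 in triCH1flox1, against 1417 and 495 in flox2 and 1675 and 783 in triCH1flox2. The difference in DP change was 2.08 (SE 0.31, limma adjusted p = 0.0159). Tnrc18 went the other way, with 2938 and 1270 in flox1 and 2262 and 792 in triCH1flox1, against 1877 and 2432 in flox2 and 1341 and 2558 in triCH1flox2 (difference -1.95, SE 0.28, adjusted p = 0.0159). Mgst3, a microsomal glutathione transferase, had 899 and 361 in flox1 and 455 and 142 in triCH1flox1, against 598 and 971 in flox2 and 210 and 631 in triCH1flox2 (difference -2.33, SE 0.39, adjusted p = 0.0478). Each rests on 1 DP and 1 vehicle array per line. The flox1 vehicle and flox2 DP arrays had the highest 18S ribosomal signals (9280 and 8257, against 1043 to 3713 on the others), so the fit was repeated without each. Without the flox2 DP array the differences were 1.92 for Raly, -2.26 for Tnrc18 and -2.50 for Mgst3, and 0 genes passed. Without the flox1 vehicle array they were 1.68, -2.20 and -2.77, and 18 genes passed, with Tnrc18 and Mgst3 among them. With the mean of all passing probe sets Tnrc18 was at -0.40.

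In the presence of TSA the DP change differed by -0.42 for Raly and by 0.06 for Tnrc18, both of the other sign. Mgst3 kept its sign there, at -0.59, and 0 genes passed, with 246 at an unadjusted p under 0.05. The largest differences of the same sign in both classes among genes that did not pass were positive for Tubb4a (2.99), Mm2pr (2.40), Sit1 (2.28) and Ccr10 (2.26), and negative for Casq1 (-2.89), Ppp1r10 (-2.79) and 4930519G04Rik (-2.31). All 7 were dim, with median signals of 55.7 to 116 and no signal above 340, so these sizes are imprecise and their order means little. Tubb4a, Sit1 and Casq1 entered the test only through the CBP-conditional arrays and 4930519G04Rik only through the p300-conditional arrays, so their sizes are descriptions. Leaving out 1 line, with the class terms left out, gave 0 to 390 genes, the most without triCH1flox1, where the control line flox1 is set against both p300-conditional lines.

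The third question was whether the change after TSA, which blocks histone deacetylases, differs between the genotypes. Raly was the 1 gene that passed (0.00871% of 11481), with 631 genes at an unadjusted p under 0.05. Raly signals on TSA arrays were 1655 in flox1 and 1449 in triCH1flox1, against 605 in flox2 and 720 in triCH1flox2. With the vehicle signals given above, this is a difference in change of 2.13 (SE 0.31, limma adjusted p = 0.0227). It rests in part on the flox1 vehicle array, and without that array 0 genes passed.

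None of the other genes named for TSA passed. Metallothionein genes, which deacetylase inhibitors are known to raise, changed by 1.04 and 1.09 (Mt1) and 1.76 and 1.07 (Mt2) in CBP-conditional lines, against 1.06 and 0.62 and 0.98 and 1.17 in p300-conditional lines. The growth gene Myc changed by -1.30 and -1.25, against -1.85 and -0.81. Cdkn1a, the CDK inhibitor p21, changed by -0.35 and -0.11, against -0.55 and -0.11, and Tyms, of nucleotide synthesis and dim at 35.1 to 237, by -0.64 and 0.30, against -1.37 and -0.33. The differences were 0.22, 0.34, 0.05, 0.10 and 0.68 for Mt1, Mt2, Myc, Cdkn1a and Tyms, with SEs of 0.17 to 0.64. Tyms entered the test only through 2 p300-conditional arrays, so its values are a description.

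Among genes that did not pass, the largest differences in TSA change of the same sign in both classes were positive for Iqsec3 (2.61), Cd300ld (2.32), Efcab2 (2.26) and Gm34303 (2.03), and negative for Serpina4-ps1 (-2.57), Pnck (-2.11), Arf5 (-2.05), Atp8a1 (-2.04) and Vangl2 (-1.94). Most of these 9 were dim too, with median signals from 52.4, and Arf5 was the brightest at 719. Iqsec3 and Efcab2 entered the test only through the p300-conditional arrays, and Gm34303, Pnck and Atp8a1 only through the CBP-conditional arrays, so their sizes are descriptions. Leaving out 1 line gave 0 to 397 genes, again the most without triCH1flox1. Of the 16 tested genes known to rise with deacetylase inhibitors, 8 had a positive and 8 a negative difference in TSA change, with a median of 0.01. Of the 10 tested genes known to fall with them, 7 were positive, with a median of 0.06, beside -0.01 for all genes.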

How the data were processed

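Per the labels, biotin-labelled total RNA was hybridised to 16 Affymetrix mouse arrays, and the authors deposited 1 intensity for every probe set, scaled so that each array has a trimmed mean of 500 (checked: 500.003 on all). Sources used here give no software version. Of 45101 probe sets, 34945 had 1 gene symbol. The scale of all differences is log2(signal + 50). Probe sets needed a signal of 200 or more on 2 or more arrays, and of several for 1 gene the brightest on average was used (11481 genes, 5085 with several passing).

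Levels were compared with limma 3.58.1 (R 4.3.3) on 4 line means, with terms for CH1 class and allele and an empirical Bayes variance trend. Differences in DP and TSA change were fitted on 16 arrays with means for class and treatment, allele within class, and allele by treatment (3 residual and 14.9 prior degrees of freedom). Benjamini-Hochberg adjustment ran over all genes, with a threshold of 0.05. Each line had its own genotype, so no spread between lines of a genotype could be measured. The residual of the level fit is how unlike the allele differences of the CH1 classes were. That of the change fit is how unlike the allele-by-treatment differences of these classes were. P-values rest on this spread and on spread borrowed from all genes, which may not be that between cultures of a genotype. In simulated data the estimates were recovered, but the level fit made more false calls than the nominal share in most draws.

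The members, the 30 gene lists and the tests were chosen with earlier results of these data known. Genes were named by a rule: for levels, the 10 largest each way that passed with all 8 pairs of one sign, for changes the 5 largest each way (filled up with genes that did not pass), Crebbp, Ep300, a set of HIF and TSA genes, and up to 4 members of a list. Picked with their values in view were Col12a1, the small leucine-rich proteoglycans other than Prelp and Lum, Eln, Fbn2, Bmp4, Cxcl12, Tnc, Lamb1, Itga5, Inhba, Hbegf, Ankrd1 and the genes of chromosome 4. Labelled numbers pair no cultures; CH1 class was the block. Alternatives covered the value added, the filter, probe sets, scaling, variance trend, array series, single arrays and lines. Figures used Python 3.11.15 and matplotlib 3.10.9. Neighbouring genes and promoters came from RefSeq (GRCm38.p6).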

Additional observations from a re-analysis of the deposited data

Results flagged for a closer look

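In 220 genes (1.92% of those tested) all 4 pairs of the control class differed one way and all 4 of the triCH1 class the other way, 108 higher in flox1 than flox2 and lower in triCH1flox1 than triCH1flox2, and 112 the reverse. The difference between the classes was not tested, as no residual is left for it. Abcg4, a sterol transporter, differed by 1.44 in the control class and by -1.15 in the triCH1 class, at mean signals of 247 in flox1 and 70.2 in triCH1flox1, against 71.0 in flox2 and 224 in triCH1flox2. Coch, a secreted matrix protein, differed by -0.94 and by 1.52, with mean signals of 2054 in flox1 and 2014 in triCH1flox1, against 3983 in flox2 and 676 in triCH1flox2. In the 25% of genes with the lowest signals the median difference was 0.23 in the control class and -0.07 in the triCH1 class, beside array backgrounds of 180 to 235 in flox1. The part of background in these opposite differences was not tested.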

How the results depend on the processing

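The reported counts were 68 higher and 110 lower for levels, 1 and 2 for the DP change, and 1 and 0 for the TSA change. The number of calls moved widely. Settings that change only the filter, the variance or the class terms leave the level difference itself as it was, so a kept sign there shows nothing. Adding 16 in place of 50 before the logarithm gave 90 and 174 for levels and 1 lower for DP, and adding 200 gave 92 and 174. No filter gave 1 lower for DP and 0 for TSA, and the stricter filter on 8 arrays 1 lower for DP. The mean of all passing probe sets gave 112 and 225 for levels and 0 for both changes, with Ndrg1 at 0.024 and Mt1 at -0.69. Quantile normalization gave 47 and 69 for levels, 1 lower for DP and Bgn at -0.026. No variance trend gave 0 in all 3 comparisons. Without the replicate block (no CH1 class terms) 3 were higher and 0 lower in level, 1 and 1 in DP change and 0 in TSA change. A term for the array series gave 23 and 29 for levels and 0 for both changes. The 16 arrays with line as a random block gave 222 and 311, but the estimated correlation was 8.67e-05, so that fit treats 8 arrays of 2 lines as replicates. Pairs within 1 series put Col12a1 at 0.074 and Bgn at -0.069. Without the flox1 vehicle array (levels: nor that of flox2) there were 143 and 234 for levels, 17 lower for DP and 0 for TSA. Vegfa was then at -0.31, Bnip3 at 0.12, Ankrd37 at 0.64, Myc at -0.70 and Mt2 at -0.36. Without the flox2 DP array (levels: nor that of flox1), chosen after seeing the data, there were 163 and 283 for levels and 0 for DP, with Vegfa at -0.011, Bnip3 at 0.080, Egln3 at 0.014 and Ankrd37 at 0.35. Averaging over the other agent gave 0 for both changes, with Ankrd37 at 0.072 and Myc at -0.034. In the presence of the other agent 0 passed. Raly was then at -0.42, Tnrc18 at 0.064 and Ankrd37 at 0.42 for DP, and for TSA Raly was at -0.37, Efcab2 at -1.02, Pnck at 0.014, Atp8a1 at 0.30, Vangl2 at 0.29, Myc at -0.12 and Tyms at -0.41. Leaving out 1 line at a time (a lone line is assumed to vary like the others) gave 4 to 8 higher and 4 to 13 lower levels, 0 to 214 and 0 to 176 for DP, and 0 to 224 and 0 to 173 for TSA. Over these fits Pmaip1 spanned -0.031 to 1.33 and Bgn -0.056 to 0.15 in level. The DP change spanned -0.53 to 0.71 for Vegfa, -0.60 to 0.19 for Slc2a1, -0.34 to 0.31 for Bnip3, -1.24 to 0.94 for Egln3, -0.69 to 0.17 for Pdk1, -1.36 to 0.81 for Ankrd37, -0.89 to 0.68 for Ndrg1 and -0.16 to 0.84 for Ddit4. The TSA change spanned -0.12 to 0.32 for Cdkn1a, -0.46 to 0.57 for Myc and -0.0019 to 0.69 for Mt2. Except where fewer samples or the terms left out explain it by construction, the cause was not tested. With 4 lines and 1 array per line and treatment, small differences and dim genes are beyond the precision of these data.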
